A study of Mus musculus with 11 samples.

Results

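The 4 Janus kinases of the mouse (Jak1, Jak2, Jak3 and Tyk2) and the STAT genes Stat3, Stat5a, Stat5b and Stat6 were measured in retinal endothelial cells. These 8 genes were taken by symbol, and each matched 1 of the 55359 genes that were counted in every sample. Janus kinases (JAKs) sit on the inner tails of cytokine receptors. Once a ligand brings the receptor chains together, the JAKs phosphorylate each other and the receptor, and STAT proteins that dock there are phosphorylated on a tyrosine, pair up and act as transcription factors in the nucleus. In mice, oncostatin M (OSM) binds a receptor made of OSMR and gp130, which works mainly through JAK1, JAK2 and TYK2 and mainly activates STAT3, and these steps act on the proteins and need no change in transcript level.

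The cells came from C57BL/6 mice (C57BL/6J in the methods of the study) in the oxygen-induced retinopathy (OIR) model, in which pups are kept in high oxygen and returned to room air, so that vessels grow into a hypoxic retina. Each sample held the sorted CD31-positive, CD45-negative cells from both retinas of 1 mouse, injected into the eye at P12 with 0.5 µL of OSM at 100 ng/µL (50 ng, 5 mice) or 0.5 µL of PBS (6 mice) and collected at P17. All mice went through OIR, and no mice without OIR were analysed here. Mice 1 to 4 formed litter 1 (2 OSM, 2 PBS), mice 5 to 8 litter 2 (2 OSM, 2 PBS) and mice 9 to 11 litter 3 (1 OSM, 2 PBS), and each litter was its own OIR run, so that litter and run cannot be told apart. The methods of the study state that fellow eyes received PBS, whereas each label names a single treatment for the whole mouse, and the labels were followed.

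The reads counted per mouse ranged from 26697990 to 56033479 (median 32500202), with the highest total in OSM mouse 9. PBS mouse 3 had the lowest total but reads on the most genes, 20898, against 16635 to 17697 in the other mice. The 10 endothelial markers together had 11856 to 17451 CPM (reads scaled to library size) in the 11 mice. Ptprc, which encodes CD45, had 31 reads in all. Markers of other retinal cells were present, with summed levels of 187 to 4976 CPM for rods, 1752 to 2217 CPM for Müller glia and 325 to 1750 CPM for mural cells. The Müller glia sum was carried by Vim (mean 291 RPKM, reads scaled by exon length and library size), Apoe (71.6 RPKM) and Glul (60.2 RPKM), which other cells also express, while Rlbp1 was at 3.65, Slc1a3 at 0.373, Kcnj10 at 0.0725 and Aqp4 at 0.0697 RPKM. Since these are bulk samples, fewer cells of a type and less RNA per cell cannot be told apart.

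The activating tyrosines show how alike the members are where they are switched on. The following stretches of coding sequence were read from the GENCODE canonical transcripts on GRCm39, 5′ to 3′, with the tyrosine codons in capitals. In the JAKs the capitals mark the tandem tyrosines of the activation loop, and in the STATs the tyrosine that is phosphorylated before the proteins pair.
Jak1: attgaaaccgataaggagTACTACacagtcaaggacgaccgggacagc
Jak2: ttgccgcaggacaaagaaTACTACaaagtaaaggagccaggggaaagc
Jak3: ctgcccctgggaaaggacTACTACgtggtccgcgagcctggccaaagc
Tyk2: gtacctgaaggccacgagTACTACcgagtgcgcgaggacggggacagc
Stat3: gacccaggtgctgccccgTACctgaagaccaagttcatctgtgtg
Stat5a: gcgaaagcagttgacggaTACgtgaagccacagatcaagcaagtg
Stat5b: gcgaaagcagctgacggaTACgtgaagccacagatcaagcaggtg
Stat6: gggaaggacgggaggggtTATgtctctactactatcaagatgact
The JAK stretches lie in exon 22 of 25 of Jak1 (chr4:101013601-101013648, minus strand), exon 21 of 24 of Jak2 (chr19:29279413-29279460, plus strand), exon 21 of 24 of Jak3 (chr8:72138711-72138758, plus strand) and exon 22 of 25 of Tyk2 (chr9:21019172-21019219, minus strand). The Stat6 stretch lies in exon 17 of 22 (chr10:127494077-127494121, plus strand). The other STAT stretches each span an intron, between exons 21 and 22 of 24 of Stat3 (chr11:100780717-100783909, minus strand), exons 17 and 18 of 20 of Stat5a (chr11:100772011-100772607, plus strand) and exons 16 and 17 of 19 of Stat5b (chr11:100675087-100678035, minus strand). All 4 JAKs had the same codon pair at this place, whereas Stat6 had another tyrosine codon than the other STATs. The Stat5a and Stat5b stretches differed at 2 of 45 bases.

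Stat5a and Stat5b are neighbouring copies, and their likeness bears on what could be counted. Stat5b (chromosome 11, 100671556 to 100741589, minus strand) and Stat5a (100750177 to 100776065, plus strand) run away from each other, and the start sites of their canonical transcripts lie 8594 bases apart. Stat3 (100775924 to 100830450, minus strand) runs towards Stat5a, and the annotated ends of both overlap by 142 bases. The coding sequences of Stat5a and Stat5b were identical at 90.7% of 2343 aligned bases, and the other pairs within the JAKs and within the STATs at 54.1% to 61.5%. The transcripts shared 10 runs of at least 50 bases, all in the coding sequence. The following run of 129 bases, the longest but 1, is identical in both, and a short read from within it cannot be placed on either gene.
Stat5a and Stat5b: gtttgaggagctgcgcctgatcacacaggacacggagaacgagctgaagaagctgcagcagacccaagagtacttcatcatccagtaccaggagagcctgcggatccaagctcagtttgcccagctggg
Of all stretches of 50 bases, 15.6% of Stat5a (608 of 3909) and 12.05% of Stat5b (608 of 5046) were shared, and 0 of those of the other 6 members were shared with any member. Reads with more than 1 place in the genome, or on exons of more than 1 gene, did not enter the counts, so the levels of Stat5a and Stat5b are lower limits. Other genes overlapped 18.0% of the exon bases of Jak1 (Raver2), 16.3% of Jak3 (B3gnt3 and Insl3), 7.41% of Stat5a, 6.91% of Tyk2, 6.89% of Stat3, 3.55% of Jak2, 1.15% of Stat6 and 0% of Stat5b. These overlaps were read from GENCODE vM39, and the GENCODE download on which the study counted was not compared with it. Where an overlap was annotated there too, reads on it were left out by the same rule. The levels of members with such an overlap can also be too low.

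Transcripts of all 8 members were found in all 11 mice. On a scale per gene length (RPKM), Jak1 was highest, with Stat3, Stat6 and Jak3 next to it. Jak2 and Stat5b followed at a lower level, then Tyk2 and Stat5a. From Jak1 to Stat5a the mean RPKM fell from 26.7 to 1.07. Read counts ranged from 24 reads for Stat5a in OSM mouse 6 to 13145 reads for Jak1 in PBS mouse 11.

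**Figure D1:**
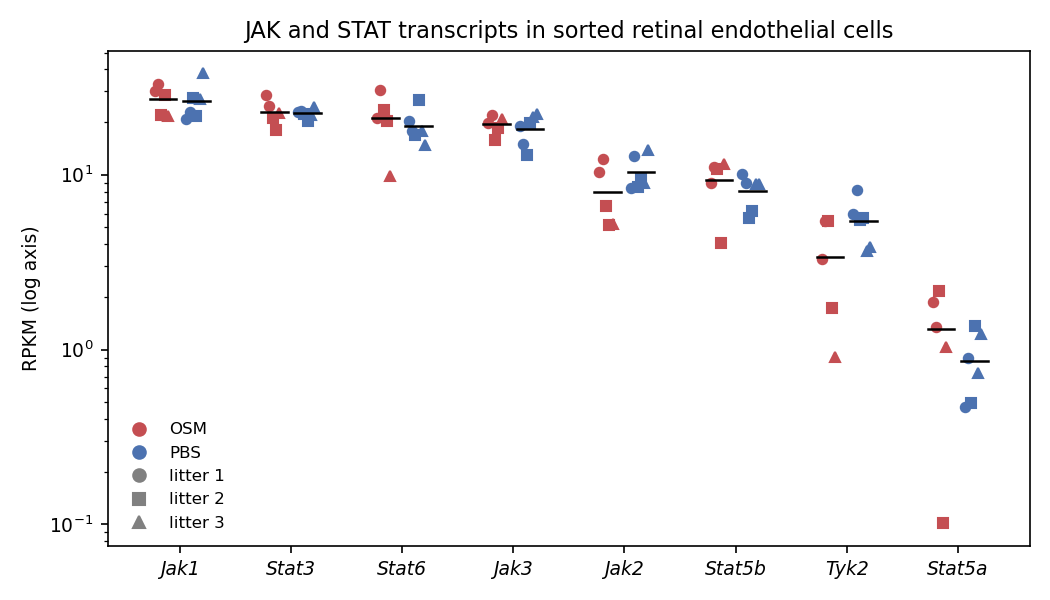
RPKM (log axis) of each member in each mouse, ordered by mean level, with OSM in red, PBS in blue, a marker shape per litter and a black line at each group mean. The 4 highest members have means from 18.8 to 26.7 RPKM, Stat5a has the widest spread, and the OSM and PBS ranges overlap for all 8 members.

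Among the kinases, Jak1, which works with most cytokine receptors of this kind (chromosome 4, 101008838 to 101122487, minus strand), had 26.7 ± 5.50 RPKM (SD, n = 11). This was above 91.6% of the 17050 genes tested. Jak3, the partner of the common gamma chain and best known from lymphocytes (chromosome 8, 72123007 to 72143225, plus strand), had 18.8 ± 3.02 RPKM (SD, n = 11), above 88.1% of the genes. Jak2, which serves the receptors of erythropoietin and growth hormone and also gp130 (chromosome 19, 29228677 to 29290505, plus strand), had 9.25 ± 2.93 RPKM (SD, n = 11). Tyk2, which serves the receptors of type I interferon and interleukin-12 among others (chromosome 9, 21015363 to 21042689, minus strand), had 4.51 ± 2.07 RPKM (SD, n = 11). Of the summed JAK level in a mouse, Jak1 held 44.9% ± 4.85, Jak3 32.1% ± 5.24, Jak2 15.4% ± 3.34 and Tyk2 7.68% ± 3.76 (SD, n = 11). These shares rest on merged exon lengths. With the length of the canonical transcript, the mean levels were 51.2 RPKM for Jak1, 23.4 for Jak3, 10.7 for Jak2 and 8.01 for Tyk2, so the shares would differ. The share of Jak3 ranged from 23.9% to 42.9%, and Jak3 lay above Jak2 in 11 of 11 mice.

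Among the STATs, Stat3, the main STAT behind gp130, had 22.7 ± 2.71 RPKM (SD, n = 11) and the narrowest spread of the members, with a coefficient of variation of 11.9%. Stat6, which relays interleukin-4 and interleukin-13 (chromosome 10, 127477821 to 127496862, plus strand), had 20.0 ± 5.66 RPKM (SD, n = 11). Stat5b, which relays growth hormone and many cytokines, had 8.65 ± 2.39 RPKM (SD, n = 11). Stat5a, first known from prolactin signalling, had 1.07 ± 0.618 RPKM (SD, n = 11) and the widest spread, with a coefficient of variation of 58.0%. Of the summed level of these STATs, Stat3 held 43.7% ± 5.16, Stat6 37.8% ± 7.88, Stat5b 16.5% ± 4.41 and Stat5a 1.96% ± 1.02 (SD, n = 11). These shares also rest on merged exon lengths. By canonical length, Stat3 was at 50.2, Stat6 at 34.8, Stat5b at 11.7 and Stat5a at 2.22 RPKM.

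Neighbours in the order of levels were compared within each mouse, as a description. Jak1 exceeded Stat3 by 0.21 ± 0.27 on the log2 scale (SD, n = 11, in this order in 8 of 11 mice). Stat3 exceeded Stat6 by 0.23 ± 0.48 (7 of 11 mice), and Stat6 exceeded Jak3 by 0.05 ± 0.50 (8 of 11 mice). By merged exon length, the mean steps among these 4 genes were thus each smaller than 1 SD between mice, and they were not tested. The step from Jak3 to Jak2, 1.08 ± 0.52, held in 11 of 11 mice. The step from Jak2 to Stat5b, 0.09 ± 0.58 (8 of 11 mice), was again smaller than 1 SD. Stat5b lay above Tyk2 by 1.08 ± 0.99 (11 of 11 mice) and Tyk2 above Stat5a by 2.22 ± 1.30 (10 of 11 mice). The exception was OSM mouse 9, where Tyk2 was lowest. When the length of the canonical transcript was used, Jak2 (10.7 RPKM) and Stat5b (11.7 RPKM) changed places, and the order of the other members' means did not change. With that length, Jak1 exceeded Stat3 by 0.011 ± 0.27 (5 of 11 mice), Stat3 exceeded Stat6 by 0.58 ± 0.48 (10 of 11 mice) and Stat6 exceeded Jak3 by 0.54 ± 0.50 (9 of 11 mice), so that the last 2 steps were then larger than 1 SD.

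To determine whether OSM altered the transcripts, both groups were compared with litter as a term (edgeR quasi-likelihood test). A call means an adjusted p under 0.05 over all 17050 genes tested, of which 0% were called, and 0 of 8 members were called, each with an adjusted p of at least 0.955. By an unadjusted p under 0.05, 846 genes (4.96%) and 1 of 8 members (Tyk2) passed. With DESeq2's Wald test with litter, 168 genes (0.763%) and 0 members were called, and 7.98% of the same 22014 genes and 2 of 8 members had an unadjusted p under 0.05. The OSM and PBS ranges were separate for 0.405% of all genes and for 0 members.

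Tyk2 was the member with the largest difference relative to its error. OSM mice 1, 2, 5, 6 and 9 had 3.29, 5.46, 5.43, 1.72 and 0.912 RPKM, while the PBS mice ranged from 3.64 to 8.15 (median 5.59). The 2 lowest mice, 6 and 9, and mouse 1 were below every PBS mouse, and mice 2 and 5 lay within the PBS range. The fold change was 0.510 (95% interval 0.304 to 0.857), with a log2 fold change of -0.97 (SE 0.34, unadjusted p = 0.0157, edgeR adjusted p = 0.955). The mean was lower after OSM in each litter, by log2 differences of -0.71, -0.87 and -2.04. Without OSM mouse 9, the log2 fold change was -0.67 and no member had an unadjusted p under 0.05. The library of mouse 9 was the deepest, and its 446 Tyk2 reads compare with 1075 and 1083 in its PBS littermates. Markers of other cell types were read beside Tyk2. Of the mural markers, 0 of 10 had a positive log2 fold change (summed levels 406 to 873 CPM after OSM and 325 to 1750 CPM after PBS). Of all genes tested, 51.6% had a negative one. All 5 red blood cell markers tested had a positive one (361 to 1129 and 117 to 596 CPM). Of the rod markers, 7 of 10 had a positive one, and no marker of these lists was called. No mural or red blood cell marker was at 0 reads in all mice, and the part of these cells in the difference of Tyk2 was not tested.

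Jak2 after OSM was at 10.4, 12.3, 6.62, 5.15 and 5.26 RPKM in mice 1, 2, 5, 6 and 9, and after PBS at 8.38 to 13.9 (median 9.27). OSM mice of litter 1 lay within the PBS range, and those of litters 2 and 3 below it. The log2 fold change was -0.46 (SE 0.23, 95% interval -0.97 to 0.05, unadjusted p = 0.0701, edgeR adjusted p = 0.955), and the log2 differences within litters were 0.13, -0.63 and -1.08. Without OSM mouse 9 it was -0.26.

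Jak1 showed values of 30.2, 32.9, 22.1, 28.4 and 21.7 RPKM in the OSM mice, in the same order, against 20.8 to 38.1 (median 25.0) in the PBS mice. All OSM mice were within the PBS range. The log2 fold change was 0.08 (SE 0.18, 95% interval -0.31 to 0.47). Jak3 was at 19.7, 22.0, 15.8, 18.5 and 20.9 RPKM after OSM and at 13.0 to 22.1 (median 19.4) after PBS, again with every OSM mouse inside the PBS range. Its log2 fold change was 0.12 (SE 0.13, 95% interval -0.16 to 0.41).

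Stat3 gave the tightest estimate of the members. The OSM mice had 28.5, 24.9, 21.1, 18.0 and 22.5 RPKM and the PBS mice 20.4 to 24.5 (median 22.4). The OSM values spread further to both sides than the PBS values, with both mice of litter 1 above the PBS range and mouse 6 of litter 2 below it. The fold change was 1.02 with a 95% interval of 0.883 to 1.17 (log2 fold change 0.02, SE 0.092, edgeR adjusted p = 1), and the median SE over all genes tested was 0.48 on the log2 scale.

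Stat6 had 21.1, 30.5, 23.4, 20.4 and 9.87 RPKM in the OSM mice and 14.7 to 26.9 (median 17.8) in the PBS mice. The OSM group held the highest value (mouse 2) and the lowest (mouse 9). The log2 fold change was -0.00 (SE 0.20, 95% interval -0.44 to 0.44).

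Stat5b was at 8.99, 11.0, 10.8, 4.08 and 11.5 RPKM after OSM and at 5.64 to 10.2 (median 8.82) after PBS. Among the OSM mice, mouse 6 lay below the PBS range, mouse 1 inside it and mice 2, 5 and 9 above it. The log2 fold change was 0.25 (SE 0.22, 95% interval -0.23 to 0.72), with 0.06, 0.17 and 0.39 within litters. It rested on OSM mouse 5, without which it was 0.00041, and it was 0.39 without OSM mouse 6. Stat5a varied more than any other member, at 1.88, 1.35, 2.17, 0.102 and 1.04 RPKM after OSM and 0.469 to 1.37 (median 0.815) after PBS. Mouse 6 lay below the PBS range and mice 1 and 5 above it. The log2 fold change of 0.60 had an SE of 0.67 and a 95% interval from -0.89 to 2.08, so a change in either direction was not resolved. It was 0.0085 without OSM mouse 5, 0.39 without PBS mouse 3, 0.93 without OSM mouse 6 and 0.92 without PBS mouse 8. OSM mouse 6 had the lowest level of Jak2, Stat3, Stat5a and Stat5b of all 11 mice. OSM mouse 5 had the highest sum of rod markers (4976 CPM), and OSM mouse 6 the next highest (1702 CPM). The part of rods in the levels of Stat5a and Stat5b was not tested.

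**Figure D2:**
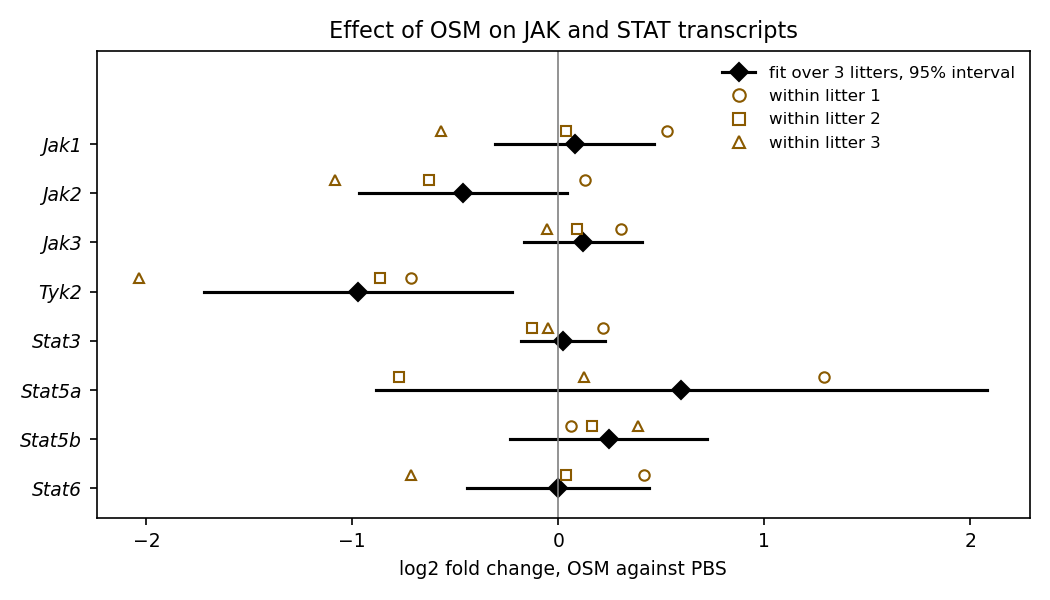
Log2 fold change of OSM against PBS for each member, with the fit over 3 litters as a black diamond, its 95% interval as a line and the log2 difference within each litter as an open symbol. The interval of Tyk2 lies below 0 (-1.72 to -0.22), those of the other 7 members include 0, and that of Stat3 is the narrowest.

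The difference had the same sign in all 3 litters for 2 of 8 members, Tyk2 (lower) and Stat5b (higher), and for 24.1% of all genes. Between litters, 10.3% of all genes and 1 member, Tyk2, had an unadjusted p under 0.05 in the edgeR test. The p of Tyk2 was 0.0318 (edgeR adjusted p = 0.434). Its mean normalised counts were 1701, 1366 and 837 in litters 1, 2 and 3. By the adjusted p, 0.0176% of all genes (3 genes) and 0 members differed between litters. In the edgeR test of the interaction of litter and treatment, 5.98% of the 19902 genes tested and 2 members had an unadjusted p under 0.05. These were Jak1 (unadjusted p = 0.0161, edgeR adjusted p = 0.658) and Stat6 (unadjusted p = 0.0482, edgeR adjusted p = 0.833). Jak1 had log2 differences of 0.53, 0.04 and -0.57 and Stat6 of 0.42, 0.04 and -0.72 in litters 1, 2 and 3. By the adjusted p, 0% of genes and 0 members passed. Litter 3 held a single OSM mouse.

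Ratios within a mouse do not depend on the scaling between libraries. The log2 ratio of Jak1 to Jak2, the kinases that gp130 binds besides TYK2, averaged 1.84 ± 0.42 in OSM mice (SD, n = 5) and 1.35 ± 0.31 in PBS mice (SD, n = 6). It ranged from 1.41 to 2.47 after OSM and from 0.84 to 1.69 after PBS. The groups overlapped over all mice, but within each litter every OSM mouse lay above every PBS mouse. In litter 2 the margin was narrow, with 1.74 in OSM mouse 5 and 1.69 in PBS mouse 7. How often other pairs of genes separate in this way was not computed, and ratios with Tyk2 were not tested. The difference adjusted for litter was 0.53 (exact permutation test within litters, two-sided, p = 0.00926, p = 0.0185 adjusted over the 2 ratios tested). This p is the smallest that the 108 possible arrangements can give, and it reflects the same separation within litters. The difference was 0.40, 0.66 and 0.52 in litters 1, 2 and 3. It was 0.44 without PBS mouse 8 (exact permutation p = 0.0556, where 54 arrangements allow 0.0185). Without OSM mouse 9 it was 0.53, and litter 3 then held no OSM mouse, so that the 36 arrangements left cannot give an exact permutation p below 0.0556, the value found. Without litters it was 0.49 (exact permutation test, p = 0.0519).

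**Figure D3:**
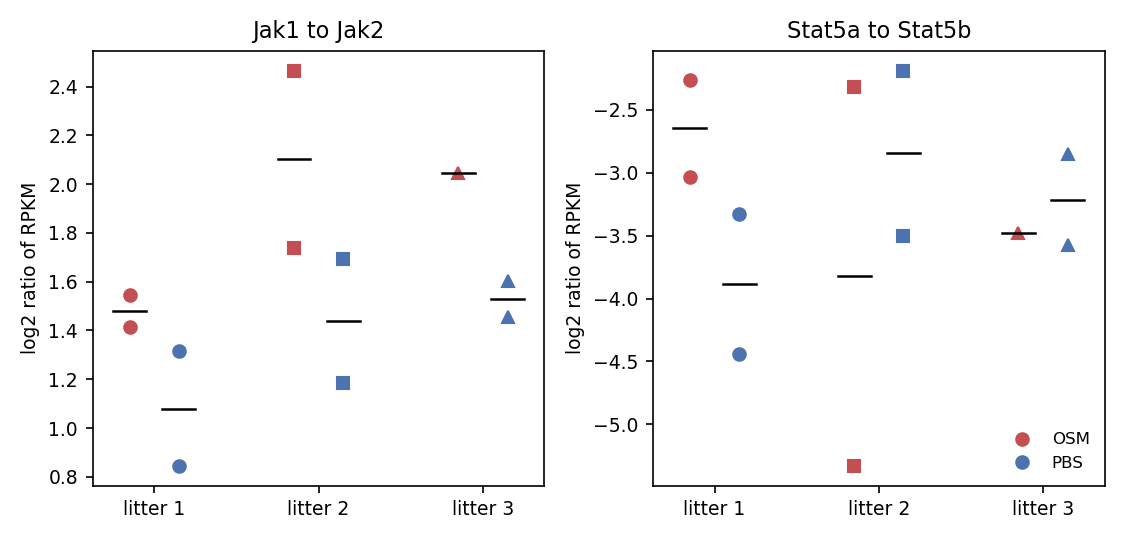
Log2 ratio of RPKM in each mouse for Jak1 to Jak2 (left) and Stat5a to Stat5b (right), by litter, with OSM in red, PBS in blue and a black line at each mean. The 5 OSM mice lie above the PBS mice of their own litter for Jak1 to Jak2, whereas the Stat5 ratio is below 0 in all 11 mice without a common direction.

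The log2 ratio of Stat5a to Stat5b was -3.30 ± 0.95 (SD, n = 11) and below 0 in 11 of 11 mice. OSM mice averaged -3.28 ± 1.25 (SD, n = 5) and PBS mice -3.31 ± 0.75 (SD, n = 6). The difference adjusted for litter was 0.03 (exact permutation test within litters, two-sided, p = 0.972), with 1.24, -0.98 and -0.26 in litters 1, 2 and 3. The ratio uses counts without the reads that both genes share.

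The members were also compared with one another across mice. OSM and PBS mice were pooled, and the treatment was not removed, so a pair can also vary together through a difference between the groups. Of the 28 pairs, 22 had a positive Pearson's r, and r ranged from -0.40 (Jak3 and Tyk2) to 0.71 (Stat5a and Stat5b). A permutation p under 0.05 was reached by 4 pairs and by 0 pairs after adjustment over the 28, with Pearson's r, with Spearman's rho, after removal of the litter means or without 2 mice. Stat5a and Stat5b had r = 0.71 (permutation p = 0.0177, adjusted p = 0.269) and rho = 0.45 (permutation p = 0.164, adjusted p = 0.767). After removal of the litter means, r was 0.74 (exact permutation p = 0.120). Without the 2 mice farthest from the median of Stat5a, r was 0.51. Jak2 and Tyk2 had r = 0.68 (permutation p = 0.0199, adjusted p = 0.269) and rho = 0.41 (permutation p = 0.215, adjusted p = 0.767). Without the 2 mice farthest from the median of Jak2, r was -0.02, and after removal of the litter means over all mice it was 0.80 (exact permutation p = 0.0260, adjusted p = 0.365). The 2 lowest levels of both genes were in OSM mice 6 and 9 (Jak2 5.15 and 5.26 RPKM, Tyk2 1.72 and 0.912 RPKM). Jak2 and Stat3 had r = 0.64 (permutation p = 0.0330, adjusted p = 0.269) and rho = 0.67 (permutation p = 0.0272, adjusted p = 0.761). For this pair, r was 0.52 without 2 mice and 0.44 after removal of the litter means. Stat3 and Stat5a had r = 0.63 (permutation p = 0.0493, adjusted p = 0.269) and rho = 0.27 (permutation p = 0.417, adjusted p = 0.773), and r was -0.10 without 2 mice and 0.68 after removal of the litter means (exact permutation p = 0.0451, adjusted p = 0.421). With 2 mice left out in this way, none of the 4 pairs had an exact permutation p under 0.05. The exact permutation p was 0.163 for Stat5a and Stat5b and 0.146 for Jak2 and Stat3. It was 0.955 for Jak2 and Tyk2 and 0.786 for Stat3 and Stat5a.

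**Figure D4:**
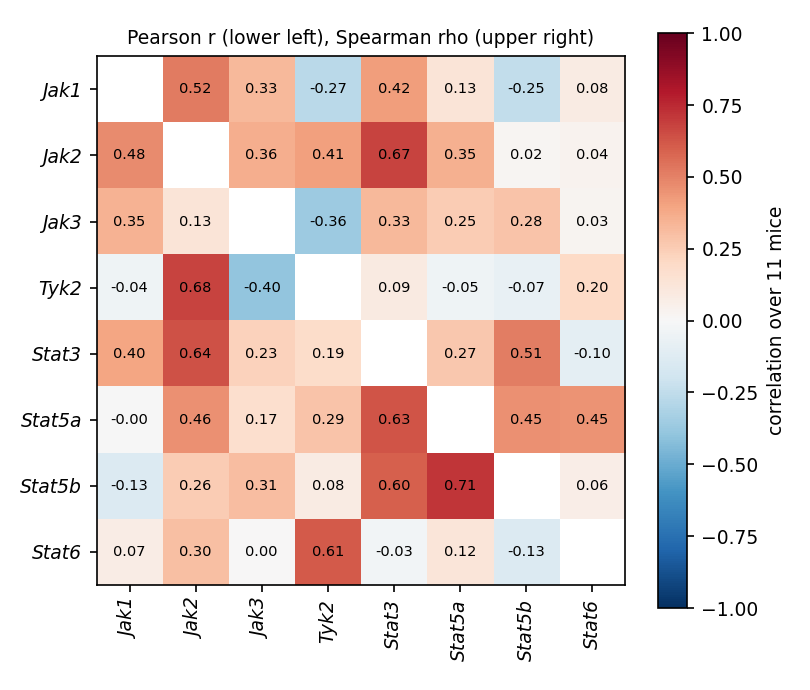
Correlation of log2 CPM over 11 mice for each pair of members, as Pearson's r in the lower left and Spearman's rho in the upper right, on a scale from -1 (blue) to 1 (red). Most pairs are weakly positive, and the highest r is 0.71 for Stat5a and Stat5b, whose rho is 0.45.

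For each member, the genes most like it over the 11 mice were taken by Pearson's r of log2 CPM among 8700 genes with at least 100 reads in every mouse. With so many genes and few mice, high values are found for any gene, and they are given as a description. For Jak1 these were Dcun1d2 (r = 0.94) and Bora (r = 0.86), for Jak2 Ncoa1 (r = 0.92) and Ankle2 (r = 0.90), for Jak3 Llgl1 and Tbp (both r = 0.89) and for Tyk2 Nup160 (r = 0.93) and Mars1 (r = 0.92). For the STATs they were Myo9b (r = 0.90) and 4833420G17Rik (r = 0.86) with Stat3, Gramd4 and Sbf1 (both r = 0.88) with Stat5a, Champ1 and Chpf2 (both r = 0.87) with Stat5b, and Slc6a6 and Acsl4 (both r = 0.90) with Stat6. No member's nearest genes were shared with another member.

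The receptors to which the kinases bind were read from lists of pathway genes. Of the 8 receptor chains of the common gamma chain family, which use JAK3, the common chain itself was at 57.9 ± 9.22 RPKM (Il2rg, SD, n = 11, lowest mouse 42.7), above all 4 JAKs. The interleukin-4 receptor Il4ra had 7.33 RPKM and the interleukin-15 receptor Il15ra 2.13 RPKM, both with reads in 11 of 11 mice. By contrast, Il2rb and Il7r had 0 reads, Il9r had 1 read, and Il2ra and Il21r each had reads in 3 mice. Jak3, Il2rg, Il4ra and Stat6 were thus all found in all 11 mice, while Il2ra, Il2rb, Il7r, Il9r and Il21r had no reads in most mice. Of the 5 chains tested, 0 were called, 3 had a positive log2 fold change and the median was 0.09.

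Since Jak3 and Il2rg are best known from lymphocytes, leukocyte markers were read beside them. Of the 10 markers of T, B and NK cells, 3 had 0 reads in all mice (Cd3d, Nkg7 and Klrd1), and all 10 together had 0 to 6.38 CPM after OSM and 0.710 to 20.1 CPM after PBS. The 10 general leukocyte markers together had 162 to 261 CPM after OSM and 199 to 289 CPM after PBS. Arhgdib (41.8 RPKM), Laptm5 (11.1 RPKM) and Coro1a (6.83 RPKM) were among them, whereas Ptprc had 0.0054 RPKM. Because the cells were sorted as CD45-negative, a low level of Ptprc follows from the sort. Whether leukocytes contributed to the reads of Jak3 or Il2rg was not tested.

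The receptors of the gp130 family ranged widely in level, down to Csf3r at 1.17, Il6ra at 0.155 and Cntfr at 0.0724 RPKM. Il6st, which encodes gp130, had 9.35 ± 2.18 RPKM (SD, n = 11), Il27ra 8.79 and Il11ra1 8.35. Osmr, the OSM receptor chain, had 3.33 RPKM and a log2 fold change of -0.79 (SE 0.27, unadjusted p = 0.0134, edgeR adjusted p = 0.955), and Lepr, the leptin receptor, had -0.23 (SE 0.20). Of the 9 genes tested, 0 were called, 1 (Osmr) had an unadjusted p under 0.05, 4 had a positive log2 fold change, and the median was -0.01, as it was for all genes tested.

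The interferon receptors were the highest of the receptor lists besides Il2rg. Ifnar2 had 52.9 ± 6.43 RPKM, Ifngr1 48.4 ± 9.96 and Ifngr2 42.7 ± 3.47 (SD, n = 11). Ifnar1 had 39.6 ± 9.14 RPKM (SD, n = 11), and Tyk2, at 4.51 RPKM, lay below all of these chains. Of the 6 genes of this list that were tested, 0 were called, 3 had a positive log2 fold change, and the median was 0.03. Il10ra, which the interleukin-10 receptor needs, had 7 reads in all. Among the other receptors, Il13ra1, which pairs with Il4ra, had 22.8 RPKM, Crlf2 14.0 RPKM and the erythropoietin receptor Epor 9.30 RPKM. Il3ra had a log2 fold change of 0.38 (SE 0.20). Il12rb1 had reads in 3 mice, all of them PBS, and was not read further. Of the 10 genes tested, 0 were called and the median log2 fold change was -0.01, also with both genes without reads after OSM set to a limit of 3 counts over the group.

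**Figure D5:**
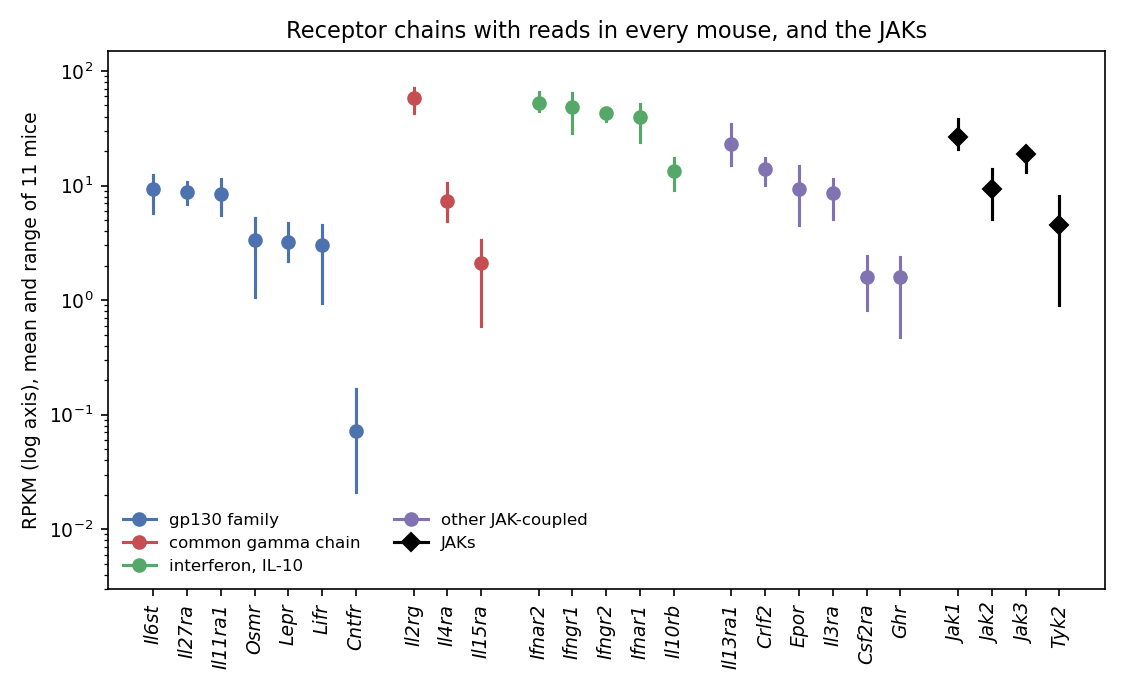
Mean RPKM (log axis) over 11 mice, with a line from the lowest to the highest mouse, for the receptor chains with reads in every mouse, by family, and for the 4 JAKs (black diamonds). Il2rg (57.9 RPKM) stands far above the other chains of its family, and 4 interferon receptor chains lie above Jak1 (26.7 RPKM).

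Outside the group of 8, Stat2, a STAT known from type I interferon signalling, had 6.86 RPKM and a log2 fold change of 0.74 (SE 0.33, unadjusted p = 0.0448, edgeR adjusted p = 0.955). Irf9, which binds DNA together with STATs, had 17.9 RPKM and a log2 fold change of 0.40 (SE 0.15, unadjusted p = 0.0214, edgeR adjusted p = 0.955). Stat4 had reads in 6 mice. Whether these genes differed from Stat3, Stat5a, Stat5b and Stat6 in their response was not tested.

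Genes that STAT proteins are known to switch on were listed for each STAT. Injection was at P12 and collection at P17, so early responses of these genes were not measured. The study reads its P17 data as a long-term influence of OSM and not as an acute effect. Of 27 genes tested for STAT3, 0 were called, 2 had an unadjusted p under 0.05 in the higher and 1 in the lower direction, and the median log2 fold change was -0.05. Ifitm3, an antiviral membrane protein and a member of a family of close copies, had 442 RPKM and a log2 fold change of 0.41 (SE 0.12, unadjusted p = 0.00475, edgeR adjusted p = 0.955). The immediate early genes Junb (112 RPKM) and Fos (108 RPKM) had log2 fold changes of -0.04 (SE 0.12) and -0.05 (SE 0.15). Timp1, an inhibitor of matrix proteases, had 0.47 (SE 0.21, unadjusted p = 0.0495, edgeR adjusted p = 0.955), and the third gene was Osmr.

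For STAT5, none of 13 genes tested passed, by the adjusted (0 genes) or the unadjusted p (0 genes), and the median was -0.04. Id1 had 155 RPKM and a log2 fold change of 0.16 (SE 0.10), Bcl2l1 19.3 RPKM and -0.04 (SE 0.14), and Ccnd1 14.6 RPKM and -0.14 (SE 0.20). The feedback inhibitor Socs3, on the lists of STAT3 and STAT5, had -0.46 (SE 0.22, unadjusted p = 0.0589). For STAT6, 10 of 18 genes were tested, with 0 called and a median of 0.07. Tgm2 had 27.9 RPKM and a log2 fold change of 0.00 (SE 0.18), Il4ra 0.15 (SE 0.23) and Vcam1 -0.24 (SE 0.24), whereas Selp and Irf4 had reads in 5 and 3 mice.

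Of 17 phosphatases and adaptors that act on JAKs or STATs, 0 were called, 1 had an unadjusted p under 0.05 in the higher and 2 in the lower direction, and the median log2 fold change was 0.03. Nmi, which binds STATs, had 28.8 RPKM and the phosphatase Dusp3 26.5 RPKM. The phosphatase Dusp22 had 9.29 RPKM and a log2 fold change of 0.85 (SE 0.22, unadjusted p = 0.00241, edgeR adjusted p = 0.955), and the adaptor Stam2 had 11.8 RPKM and -0.40 (SE 0.17, unadjusted p = 0.0359). Ptpn6, a phosphatase best known from blood cells, had 0 reads in the OSM mice and reads in 3 PBS mice.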

How the data were processed

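CD31-positive, CD45-negative cells were sorted from retinas of 11 mice. Per the labels and the study's methods, cDNA was made from picograms of RNA with poly(A) priming and PCR, sequenced as single reads without molecular identifiers, aligned to GRCm39 with STAR and counted on GENCODE genes by featureCounts with its standard settings. The authors deposited raw counts per gene, without normalization. The file headers of mice 10 and 11 carry the next mouse number, and the labels were used. Of 55359 genes, 54749 were in the annotation used here (GENCODE vM39).

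The counts were fitted with edgeR 4.0.16 (R 4.3.3): TMM, filterByExpr with a minimum of 10 counts, which kept 17050 genes, litter and treatment as terms, robust quasi-likelihood F tests and Benjamini-Hochberg adjustment over all genes tested, with a threshold of 0.05. Interaction terms were fitted in a second model. RPKM used TMM-scaled libraries and merged exon lengths of GENCODE vM39, which may differ from the lengths in the annotation that was counted. Ratios were tested by exact permutation within litters, and correlations of log2 CPM (prior count 2) with 100000 permutations, or exactly within litters. Replicates were separate mice. Errors are the spread between mice, since PCR copies are not independent molecules.

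The members and lists were chosen with earlier results of these data known. The genes named from each list are the 3 with the highest RPKM and the 2 with the lowest unadjusted p. Genes named beyond this (such as Timp1, Stat4, Il2rb, Il7r, Il9r, Il21r, Il10ra and the markers) were chosen after their values were seen. Some genes of the lists are not reported here. Alternatives were other size factors, filters and lengths, no litter term, no robust estimation, DESeq2 1.42.0 with and without litter, and leaving out each mouse or litter.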

Additional observations from a re-analysis of the deposited data

How the results depend on the processing

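No member was called under any of the alternatives run, in the comparison of OSM and PBS or between litters. Over 21 alternatives, the direction of Jak2, Jak3, Tyk2, Stat5a and Stat5b did not change. The log2 fold change of Tyk2 ranged from -1.34 to -0.67, with an adjusted p from 0.0562 (no filter on low counts) to 1 and 0.214 under DESeq2 with litter, and its unadjusted p was under 0.05 in 17 of 21. Those of Jak2, Stat5a and Stat5b kept their sign but not their size: without OSM mouse 5, Stat5a was at 0.0085 and Stat5b at 0.00041, and without OSM mouse 9, Jak2 was at -0.26. Members with differences near 0 turned. Stat6 was at 0.14 without a litter term and under DESeq2 without litter, at 0.22 without litter 3 and at -0.15 to 0.22 without 1 mouse. Without litter 1, Jak1 was at -0.20 and Stat3 at -0.094. Without 1 mouse, Jak1 ranged from -0.014 to 0.28 and Stat3 from -0.032 to 0.077. The Stat5a to Stat5b difference ranged from -0.30 to 0.61 and that of Jak1 to Jak2 from 0.41 to 0.61 without 1 mouse, and the latter was 0.49 without litters.

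The number of genes called for OSM against PBS was 0 in the edgeR fits except 65 without a filter, and 168 and 88 under DESeq2 with and without litter. Between litters, 3 genes were called, 109 with at least 10 counts in every mouse and 19 with litter alone, and the cause was not tested. With canonical transcript lengths the RPKM values were 51.2 for Jak1, 50.2 for Stat3, 34.8 for Stat6, 23.4 for Jak3, 11.7 for Stat5b, 8.01 for Tyk2 and 2.22 for Stat5a. No paired analysis was possible because mouse numbers are not shared between groups. Stat5a had 24 to 539 reads per mouse.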
